A study of Caenorhabditis elegans with 15 samples.

Results

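Whole worms that had grown up with material from a Microcystis aeruginosa batch culture, a cyanobacterium, were compared with worms raised with Z-medium, which the titles name as a control. The members were chosen by sample title: 3 arrays titled for the culture and 3 titled for Z-medium, 6 of the 15 arrays of the series. All worms were Caenorhabditis elegans N2, the standard wild-type strain, kept on NGM agar with OP50 bacteria at 20 °C, exposed for life and collected on adult day 1. The culture group received filtered culture, which the labels also describe as lyophilised in brackets, at 40% of its original content by the AOBr measure. The Z-medium group is labelled as an unexposed control, and the labels do not say whether its medium was filtered or lyophilised. The other 9 arrays held 3 of August lake water and 3 of October lake water, each at 200% of its original AOBr content, and 3 of water. The labels call the replicates biological and mention triplicate cultivation. They name no batch, so the p-values measure the spread between these samples.

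Microcystis aeruginosa is a bloom-forming freshwater cyanobacterium, and many of its strains make peptide toxins such as microcystins. C. elegans is a transparent soil nematode that eats bacteria. Its pharynx grinds them, and a single-layered tube of intestinal cells digests them with cathepsin-type and aspartic proteases, meets microbes with lysozymes, lectins and small antimicrobial proteins, stores fat and makes yolk. Its body is covered by a collagen cuticle that is shed and remade at each larval molt. In the hermaphrodite the gonad makes sperm first and then oocytes, so a young adult holds stored sperm, growing oocytes and early embryos. RNA came from whole animals, so fewer cells of a type and less RNA per cell cannot be told apart.

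Each array gave 1 signal per probe set, a group of short probes against a transcript. Median signals were 100.5, 100.7 and 99.2 on the culture arrays, against 112.9, 106.2 and 105.2 on the Z-medium arrays. The log2 signals of replicates correlated across probe sets at 0.981 to 0.986 in the culture and at 0.976 to 0.986 in Z-medium. Of 41 tissue markers checked, 40 were bright enough to be tested, among them those of intestine, muscle, pharynx, epidermis, neurons and germline. Replicate 1 of Z-medium stood apart from its group. On the first principal component of the 15 arrays, which held 37.97% of the variance, culture replicates 1 to 3 lay at 11.96, 26.7 and 36.1, against -28.9, 0.22 and 6.01 for Z-medium. The first replicates of water and both lake samples lay at -27.7 to -21.8. Results are therefore given without and with replicate number as a block. The log2 ratio of the 3′ to the 5′ actin control probe sets was 1.13, 1.02 and 0.89 in the culture and 0.92, 1.08 and 0.75 in Z-medium, and those of GAPDH were 0.14, 0.40 and 0.05 in the culture and 0.17, 0.24 and 0.23 in Z-medium. The groups overlapped in both ratios.

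With the deposited scaling, more transcripts fell than rose in the culture. Of 13529 probe sets tested on log2 signals with limma, 209 passed at a Benjamini-Hochberg adjusted p under 0.05 (1.54%), 48 of them higher (0.355%) and 161 lower (1.19%). Those with exactly 1 gene symbol stood for 43 genes that rose and 143 that fell. The median log2 change was 0.63 among the higher probe sets and -0.84 among the lower ones. With replicate number as a block the count was 1245 (9.2%), 246 higher (1.82%) and 999 lower (7.38%), and all 209 were among them. The split of calls turned on the scaling: with the arrays set to 1 median, 62 of 168 calls were higher, and with that scaling and the block 849 of 1584. The median of all probe sets shifted upward by 0.11 with median scaling, and changes near that size are read relative to it. A list median between 0 and 0.11 in that setting thus lies below that of all probe sets. Without 1 array the count lay between 89 (without Z-medium replicate 1) and 229 (without culture replicate 1), and it was 92 when replicate 2 of either group was dropped and 100 when culture replicate 3 was. In all, 0 of the 209 changed sign in any setting tried.

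For all 209 probe sets the 3 culture arrays lay wholly above or wholly below the 3 Z-medium arrays, as they did for 19.1% of all probe sets tested. In 179 of the 209 the culture arrays also lay outside all 12 other arrays of the series (37 above and 142 below), against 5.13% of all probe sets tested. The same arrays entered the test, so both counts describe the calls and are no separate support for them. Errors beside a log2 change are standard errors of the model, each from 3 arrays against 3. For genes that passed, a value introduced by "or" after an adjusted p is the adjusted p with median scaling, or the highest one with a single array left out, and it is given where that setting ended the call. Where the culture mean lay below the signal of 57.9 needed for testing, 57.9 stands in for it and the fall is written as a lower bound ("at least").

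**Figure D1:**
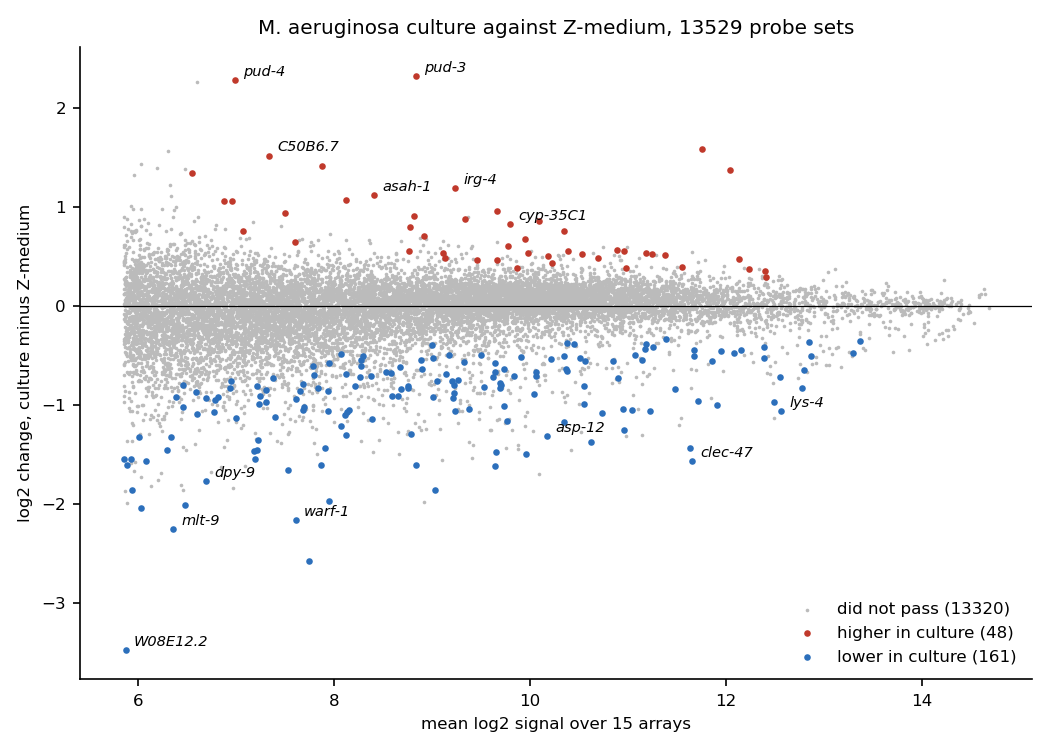
Log2 change of culture minus Z-medium (vertical) against the mean log2 signal over 15 arrays (horizontal) for the 13529 probe sets tested, with those past the test in red (48 higher) and blue (161 lower). The largest rises, pud-3 and pud-4, stand at 2.33 and 2.29 above all other points that passed, while W08E12.2 is the lowest point.

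The largest rises were those of pud-3 and pud-4, genes named for proteins that are more abundant in mutants of the insulin receptor gene daf-2. Signals of pud-3 were 1508, 1953 and 1773 in the culture, against 389, 311 and 343 in Z-medium, a 5.01-fold rise (log2 change 2.33 ± 0.13, adjusted p = 1.11e-07). The highest Z-medium array lay far below the lowest culture array. Signals of pud-4 were 492, 525 and 642 in the culture, against 121, 136 and 86.7 in Z-medium (log2 change 2.29 ± 0.21, adjusted p = 1.09e-05). In the gene order of a current reference assembly both genes are neighbours on chromosome V. A pair of much brighter probe sets, each annotated with more than 1 symbol and so not named, also rose, by less. The first had signals of 8172, 8734 and 7661 in the culture, against 3047, 2707 and 2437 in Z-medium (log2 change 1.59 ± 0.09). The other had 9001, 8396 and 8992 in the culture, against 3762, 3218 and 3210.0 in Z-medium (log2 change 1.38 ± 0.08). Of the insulin pathway itself, 0 of 11 genes tested passed (3 higher and 0 lower at an unadjusted p under 0.05) and 8 had a positive value (median log2 change 0.13). With the block 3 were higher and 1 lower. Of all genes, on the brightest probe set, 1.8% were higher and 7.9% lower with the block. Unadjusted, these shares were 5.04% and 10.5%. The lipid phosphatase gene daf-18, which opposes the pathway, had a log2 value of 0.29 ± 0.08 (adjusted p = 0.0759, 0.0109 with the block), and the kinase gene pdk-1, which acts within it, stood at 0.43 ± 0.15 (adjusted p = 0.195, 0.0127 with the block).

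Rises among genes linked to infection and lipids were smaller. The infection response gene irg-4, which encodes a protein with a CUB-like domain, had signals of 1288, 951 and 1191 in the culture, against 611, 439 and 457 in Z-medium (log2 change 1.19 ± 0.17, adjusted p = 0.00130). The acid ceramidase gene asah-1, whose enzyme splits ceramide, had signals of 595, 533 and 704 in the culture, against 295, 286 and 255 in Z-medium, a 2.18-fold rise (adjusted p = 2.02e-04). It was the only one of 19 sphingolipid genes tested to pass. The short-chain dehydrogenase gene dhs-26 had signals of 281, 262 and 149 in the culture, against 99.3, 80.3 and 84.2 in Z-medium (log2 change 1.34 ± 0.25, adjusted p = 0.0142, or 0.0802 leaving out culture replicate 2), and no other of the 26 genes of its list passed. Culture replicate 3 was the lowest of the culture arrays for dhs-26 and still above every Z-medium array. The transcription factor gene aptf-4, of the AP-2 family, rose with signals of 165, 219 and 199 in the culture, against 69.2, 103 and 111.9 in Z-medium (adjusted p = 0.0107, or 0.0654 leaving out culture replicate 2). Other large rises were those of C50B6.7 (log2 change 1.52 ± 0.18, adjusted p = 3.48e-04), txt-4 (1.42 ± 0.25, adjusted p = 0.0102, or 0.0577 leaving out culture replicate 2), C32H11.4 (1.07 ± 0.25, adjusted p = 0.0478, or 0.134 leaving out Z-medium replicate 3), srap-1 (0.96 ± 0.22, adjusted p = 0.0462, or 0.166 leaving out culture replicate 2, while its other probe set had the opposite sign, -0.10 ± 0.11, adjusted p = 0.721), drd-50 (0.94 ± 0.21, adjusted p = 0.0340, or 0.152 leaving out culture replicate 2), sysm-1 (0.91 ± 0.15, adjusted p = 0.00529), D1086.3 (0.88 ± 0.11, adjusted p = 3.48e-04) and F42A10.7 (0.85 ± 0.12, adjusted p = 0.00105), for which no role is given here.

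Some further rises outside the naming rule were picked after their values were seen, and they stand for no group. The triglyceride lipase gene atgl-1 had signals of 609.8, 750.4 and 547 in the culture, against 433, 375 and 355 in Z-medium on the probe set that passed (log2 change 0.71 ± 0.13, adjusted p = 0.0107, or 0.0585 leaving out culture replicate 2). Its brightest probe set did not pass (log2 value 0.08 ± 0.14, adjusted p = 0.830), nor did the third (0.12 ± 0.18, adjusted p = 0.783). The DNase II gene nuc-1, which degrades the DNA of dead cells and food, had signals of 2837, 2389.7 and 2597 in the culture, against 1865, 1835 and 1615 in Z-medium (adjusted p = 0.00489). A cathepsin Z-like protease gene, cpz-1, had a log2 change of 0.38 ± 0.07 (adjusted p = 0.0107, or 0.0587 leaving out Z-medium replicate 2). Each of the next genes passed on 1 of 2 probe sets. The polarity gene par-3 had a log2 change of 0.54 ± 0.12 on the dimmer one (adjusted p = 0.0329, or 0.149 leaving out Z-medium replicate 1) and a value of 0.17 ± 0.09, adjusted p = 0.411 on the brighter one. The RNA-binding protein gene spn-4 had 0.30 ± 0.07 on the dimmer one (adjusted p = 0.0412, or 0.0657 with median scaling and 0.152 leaving out culture replicate 2) and 0.12 ± 0.13, adjusted p = 0.692 on the brighter one. On its brighter probe set the kinesin gene zen-4 had 0.53 ± 0.09 (adjusted p = 0.00950, or 0.0504 leaving out culture replicate 3), and the other stood at 0.21 ± 0.13, adjusted p = 0.463. The non-muscle myosin gene nmy-2 had 0.35 ± 0.08 on its brighter one (adjusted p = 0.0475, or 0.152 leaving out culture replicate 2), with the other at 0.17 ± 0.08, adjusted p = 0.342.

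The largest falls ended at signals too low to give their full size. W08E12.2, with no role given here, had signals of 10.2, 8.52 and 13.9 in the culture, against 186, 97.0 and 92.4 in Z-medium, so it fell at least 2.05-fold (adjusted p = 2.14e-04). Signals of warf-1 were 61.2, 54.2 and 51.8 in the culture, against 289, 241 and 222 in Z-medium, a fall of at least 4.30-fold (adjusted p = 2.93e-06). In both, the highest culture array lay below the lowest Z-medium array by a wide gap. The molting gene mlt-9 had signals of 41.0, 13.4 and 42.3 in the culture, against 155, 141 and 116 in Z-medium and fell at least 2.35-fold on its dimmer probe set (adjusted p = 0.0205, or 0.0881 leaving out Z-medium replicate 1), while the brighter one did not pass (log2 value -1.28 ± 0.33, adjusted p = 0.0692). The hedgehog-related gene qua-1, also needed for molting, fell at least 2.08-fold (adjusted p = 0.0420, or 0.182 leaving out culture replicate 3). The insulin-like peptide gene ins-35 had signals of 33.7, 28.3 and 13.2 in the culture, against 73.4, 58.3 and 82.7 in Z-medium and fell at least 1.22-fold (adjusted p = 0.0147, or 0.0630 leaving out Z-medium replicate 1). It was 1 of 16 insulin-like peptide genes tested, and the other 15 did not pass. Among falls that stayed above the testing level, gmap-3 had signals of 111, 96.5 and 78.1 in the culture, against 680.3, 295 and 253 in Z-medium (adjusted p = 0.0329, or 0.153 leaving out Z-medium replicate 1). B0024.4 had signals of 89.4, 57.1 and 67.8 in the culture, against 389.5, 182 and 152 in Z-medium (adjusted p = 0.0412, or 0.191 leaving out Z-medium replicate 1). Those of dbd-20 were 145, 90.6 and 94.1 in the culture, against 508, 269 and 254 in Z-medium (adjusted p = 0.0223, or 0.109 leaving out Z-medium replicate 1). In gmap-3, B0024.4 and dbd-20 Z-medium replicate 1 was far above Z-medium replicates 2 and 3. Falls of F36H12.4 (at least 1.89-fold, adjusted p = 0.0492, or 0.136 leaving out Z-medium replicate 2), T06D8.10 (at least 1.45-fold, adjusted p = 0.0197, or 0.0989 leaving out culture replicate 2) and Y105C5B.17 (at least 1.49-fold, adjusted p = 0.0167, or 0.0861 leaving out culture replicate 2) were of the same kind as that of W08E12.2, with culture arrays at 14.3 to 39.4.

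Several genes of digestion in the gut lumen fell. Lists were counted with 1 probe set per gene, the brightest, and on that count 0.361% of 10259 genes were higher and 1.35% lower, and the median log2 change of all of them was 0.00. At an unadjusted p under 0.05, given below for lists with no call, 5.04% of the genes were higher and 10.5% lower. Of 16 gut protease genes tested 6 fell and 0 rose (median log2 change -0.30). With median scaling 3 fell, where 106 of 13529 probe sets did. With the block 8 were lower and 1 higher, where the shares of all genes were 7.9% and 1.8%. For 9 of the 16 every culture array lay below every Z-medium array, as for 11.9% of all genes, and for 1 above, as for 7.83%. The cathepsin B-like gene cpr-4 had signals of 3498, 3875 and 3548 in the culture, against 7867, 6359 and 7257 in Z-medium (log2 change -0.97 ± 0.08, adjusted p = 5.10e-06). Its relative cpr-1 had signals of 4302, 4225 and 4846 in the culture, against 7513, 7638 and 6844 in Z-medium (adjusted p = 1.22e-04). All culture arrays lay well below all Z-medium arrays in both. The falls of cpr-5 (log2 change -0.45 ± 0.08, adjusted p = 0.0142, or 0.0862 with median scaling and 0.0776 leaving out culture replicate 2) and cpr-3 (-0.61 ± 0.13, adjusted p = 0.0250, or 0.0635 with median scaling and 0.115 leaving out Z-medium replicate 1) were smaller. The aspartic protease gene asp-12 had signals of 761, 555 and 688 in the culture, against 1816, 1700.4 and 1457 in Z-medium (log2 change -1.32 ± 0.13, adjusted p = 2.34e-05), and its neighbour on chromosome V, asp-6, had 9519, 8326 and 9016 in the culture, against 10786, 12656 and 10922 in Z-medium (adjusted p = 0.0340, or 0.237 with median scaling and 0.152 leaving out culture replicate 2). The dimmer probe set of asp-6 did not pass (log2 value -0.18 ± 0.09, adjusted p = 0.373).

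Other genes of the intestine followed in part. Of 16 genes of the intestine list, which shares cpr-1 and the metallothionein gene mtl-2 with other lists, 4 fell and 0 rose (median -0.31). The intermediate filament genes ifb-2 and ifd-2, whose proteins line the gut lumen beneath the brush border, had signals of 1372, 1263 and 1394 in the culture, against 2319, 1761 and 1881 in Z-medium for ifb-2 (adjusted p = 0.0492, or 0.0747 with median scaling and 0.227 leaving out Z-medium replicate 1) and 326, 246 and 267 in the culture, against 504, 476 and 485 in Z-medium for ifd-2 (adjusted p = 7.98e-04). The gut marker genes elt-2, the GATA factor of intestinal identity, ges-1, an esterase, vha-6, a proton pump subunit, act-5, the microvillar actin, and pept-1, a peptide transporter, did not pass, with log2 values of -0.14, -0.25, -0.14, -0.20 and -0.38. With the block pept-1 passed (adjusted p = 0.0130). Yolk protein genes, which the intestine also expresses, had small positive values in all 5 tested (median 0.12), 0 passed (1 higher and 0 lower unadjusted), and vit-1 had signals of 15577, 14465 and 13348 in the culture, against 11582, 12073 and 13166 in Z-medium (adjusted p = 0.121, 0.0550 with the block).

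Several genes of defence in the gut lumen fell. Of 9 lysozyme genes tested 3 fell and 0 rose (median -0.55), 5 were lower with the block, and in 6 every culture array lay below every Z-medium array. Signals of lys-4 were 3873, 3456 and 3509 in the culture, against 7616, 7453 and 7474 in Z-medium (log2 change -1.06 ± 0.07, adjusted p = 2.13e-07). Those of lys-6 were 149, 131 and 172 in the culture, against 314, 335 and 293 in Z-medium (adjusted p = 4.53e-04), and those of lys-2 were 1141, 1275 and 1349 in the culture, against 2288, 2068 and 1897 in Z-medium (adjusted p = 8.71e-04). In none of these 3 genes did the groups overlap. Of 77 C-type lectin genes, which encode secreted or membrane sugar-binding proteins, 8 fell and 0 rose (median -0.17, or -0.06 with median scaling), and 13 were lower and 3 higher with the block. The strongest, clec-47, had signals of 1455, 1499 and 1493 in the culture, against 4333, 4369.5 and 4471 in Z-medium, a 2.96-fold fall (adjusted p = 1.97e-07), and the spread within each group was small beside the gap. The falls of clec-265, clec-62, clec-10, clec-65 and clec-63 had log2 changes of -0.71 ± 0.08, -0.69 ± 0.13, -0.64 ± 0.12, -0.57 ± 0.09 and -0.47 ± 0.10. For clec-62 the test gave adjusted p = 0.0161, or 0.0854 leaving out culture replicate 2, for clec-10 adjusted p = 0.0107, or 0.0630 leaving out Z-medium replicate 2 and for clec-63 adjusted p = 0.0252, or 0.0850 with median scaling and 0.117 leaving out culture replicate 2. The dimmer probe sets of clec-10 and clec-65 did not pass (log2 values -0.54 ± 0.15 and -0.45 ± 0.12, adjusted p = 0.0854 and 0.0689). With median scaling 5 of the 8 passed, and the calls lost were those of clec-63 and of clec-41 (adjusted p = 0.204) and clec-72 (0.0582), named after their values were seen. Neighbouring genes clec-62 and clec-63 lie on chromosome II.

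Antimicrobial and infection genes did not move one way. Of 31 antimicrobial peptide genes 1 rose, the saposin-like gene spp-1 with signals of 2117, 2174 and 2056 in the culture, against 1753, 1317 and 1497 in Z-medium (adjusted p = 0.0386, or 0.139 leaving out culture replicate 2), and 0 fell. The list's median was -0.06, and 0.05 with median scaling, below the 0.11 of all probe sets in that setting. Of 9 infection response genes 1 rose, irg-4, and 1 fell, irg-8, with signals of 1909, 1996 and 1690.4 in the culture, against 3353, 3363 and 3259.9 in Z-medium (adjusted p = 7.35e-04). Its neighbour dod-19, named as downstream of the insulin-regulated factor DAF-16, had signals of 1096, 1076 and 1144 in the culture, against 2595, 2071 and 2179 in Z-medium (adjusted p = 4.53e-04). The dimmer probe set of dod-19 did not pass (log2 value -0.62 ± 0.15, adjusted p = 0.0629). Of the 8 genes of that dod list, dod-3 (log2 change 0.75 ± 0.16, adjusted p = 0.0295, or 0.128 leaving out culture replicate 3) and dod-23 (0.51 ± 0.11, adjusted p = 0.0299, or 0.140 leaving out Z-medium replicate 1) rose and dod-19 fell.

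**Figure D2:**
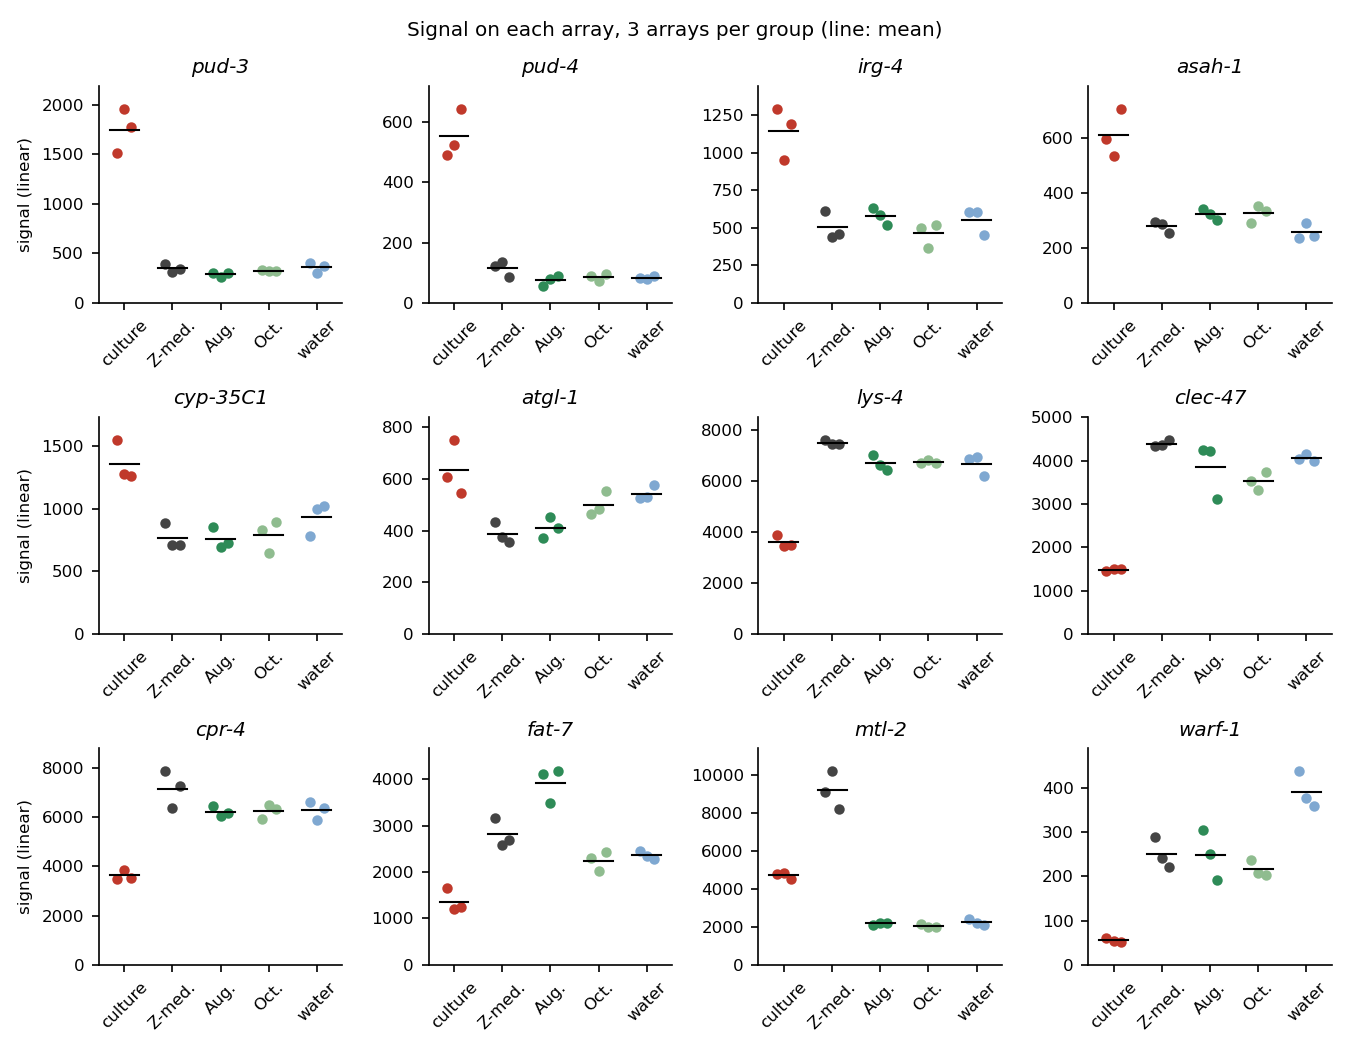
Linear signal on every array for 12 genes that passed, with culture and Z-medium at the left of each panel and August lake, October lake and water at the right (3 arrays each, black line for the mean, axes from 0). Culture arrays stand above all 12 others for pud-3, pud-4, irg-4, asah-1 and cyp-35C1 and below all 12 for lys-4, clec-47, cpr-4, fat-7 and warf-1, while mtl-2 lies between Z-medium and the other groups.

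Detoxification families held changes in both directions. These families add oxygen or sugars to foreign compounds or pump them out of cells. Of 36 cytochrome P450 genes 2 rose and 1 fell (median 0.12), and with the block 7 were higher and 1 lower. The gene cyp-35C1 did not pass on its dimmer probe set (log2 value 0.64 ± 0.16, adjusted p = 0.0609). On the brighter one it had signals of 1546, 1275 and 1257 in the culture, against 882, 712 and 707 in Z-medium (log2 change 0.83 ± 0.14, adjusted p = 0.00795). For cyp-35A2 they were 1529, 1444 and 1404 in the culture, against 908, 874 and 958 in Z-medium (adjusted p = 0.0343, or 0.114 leaving out Z-medium replicate 1). In contrast cyp-33C8 had signals of 172, 221 and 158 in the culture, against 388, 402 and 411 in Z-medium (adjusted p = 0.00315). The UDP-glucuronosyltransferase list of 44 had 2 rises and 2 falls (median -0.12, or -0.008 with median scaling), and with the block 3 were higher and 7 lower. Signals of ugt-9 were 249.7, 248 and 198 in the culture, against 121, 111.5 and 98.9 in Z-medium (adjusted p = 0.0232, or 0.101 leaving out culture replicate 2). A log2 change of 0.38 ± 0.09 was found for ugt-22 (adjusted p = 0.0384, or 0.152 leaving out culture replicate 2). In ugt-62 the signals were 972, 948 and 1003 in the culture, against 2067, 2203 and 1941 in Z-medium (adjusted p = 1.45e-06). The groups did not overlap in these genes. For ugt-19 they were 48.7, 86.0 and 67.7 in the culture, against 199, 181 and 194 in Z-medium (adjusted p = 6.85e-04). Among 27 glutathione S-transferase genes the omega-class gene gsto-1 fell, with signals of 119.8, 155 and 117 in the culture, against 249, 228 and 229.8 in Z-medium (adjusted p = 0.00430). Of 37 ABC transporter genes the P-glycoprotein gene pgp-9 (90.04, 82.1 and 61.5 in the culture, against 155, 175 and 176 in Z-medium, adjusted p = 0.00259) and pmp-5, of the peroxisomal membrane class (log2 change -0.44 ± 0.09, adjusted p = 0.0232, or 0.101 with median scaling and 0.119 leaving out Z-medium replicate 1), fell and 0 rose.

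In the metal, small heat shock and oxidative stress lists every gene that passed fell. Of 24 metal-handling genes 3 fell: the cadmium-responsive genes cdr-2, with signals of 413, 484 and 589 in the culture, against 1277, 969 and 1064 in Z-medium (adjusted p = 0.00299), and cdr-4, with 382, 299 and 381 in the culture, against 825, 676 and 706 in Z-medium (adjusted p = 0.00317), and mtl-2, a metallothionein that binds zinc and cadmium. On its brightest probe set mtl-2 had signals of 4789, 4859.6 and 4509 in the culture, against 9143, 10212 and 8244 in Z-medium (log2 change -0.96 ± 0.08, adjusted p = 5.10e-06), and it passed on all 3 of its probe sets, the other 2 at -1.05 and -1.37. Water arrays stood at 2403, 2217 and 2099.6 on the brightest probe set, below the culture, and Z-medium itself was above water by 2.03 ± 0.08 on the log2 scale (adjusted p = 9.99e-10). It is 1 of 3 probe sets past that test, all of mtl-2, and the fall in the culture shares its Z-medium arrays. Of 8 small heat shock protein genes hsp-12.3 (107, 87.9 and 107 in the culture, against 205, 206 and 159 in Z-medium, adjusted p = 0.0127, or 0.0690 leaving out culture replicate 2) and hsp-12.2 (1792, 1589 and 1539 in the culture, against 2448, 2237 and 2243 in Z-medium, adjusted p = 0.0329, or 0.0802 with median scaling and 0.140 leaving out Z-medium replicate 1) fell. Among 45 large chaperone genes 0 passed (median 0.05, 0 higher and 0 lower unadjusted), and hsp-60, the mitochondrial chaperonin gene, had a log2 value of -0.17 ± 0.08 (adjusted p = 0.329). Of 22 oxidative stress genes msra-1, a methionine sulfoxide reductase gene, fell, with signals of 4809, 4193 and 5321 in the culture, against 8944, 7763 and 8651 in Z-medium (adjusted p = 0.00328), and the others did not pass (median -0.05, or 0.06 with median scaling). In the sulfide and hypoxia list 0 of 8 passed (median -0.23, 0 higher and 1 lower unadjusted), and cdo-1, the cysteine dioxygenase gene, stood at -0.44 ± 0.11 (adjusted p = 0.0713, 0.00762 with the block). In the osmotic list 0 of 10 passed (median -0.12, or -0.01 with median scaling, and 0 higher and 2 lower unadjusted), among them the aquaporin genes aqp-11 (-0.27 ± 0.11, adjusted p = 0.242) and aqp-7 (-0.18 ± 0.09, adjusted p = 0.325).

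Lipid genes changed at single steps. Of 35 fatty acid synthesis genes 2 fell and 1 rose (median -0.11, or -0.002 with median scaling). The stearoyl-CoA desaturase gene fat-7, which makes oleic acid, had signals of 1653, 1203 and 1237 in the culture, against 3172, 2592 and 2697 in Z-medium, a 2.08-fold fall (adjusted p = 1.98e-04). Signals of acl-12, an acyltransferase gene, were 375, 351 and 382 in the culture, against 840.1, 562 and 729.6 in Z-medium (adjusted p = 0.0208, or 0.109 leaving out Z-medium replicate 1). Its dimmer probe set did not pass (log2 value -0.56 ± 0.23, adjusted p = 0.261). The rise was that of fat-3, a desaturase gene of polyunsaturated fatty acid synthesis, with signals of 3019.9, 3029.5 and 3054 in the culture, against 2477, 2124 and 1734 in Z-medium (adjusted p = 0.0250, or 0.0871 leaving out culture replicate 3). Culture arrays of fat-3 lay within a narrow range and Z-medium arrays did not. In peroxisomal beta-oxidation acox-1.5, which encodes an acyl-CoA oxidase, had signals of 531, 576 and 553 in the culture, against 1028, 966 and 904 in Z-medium (adjusted p = 0.00210) and was 1 of 8 genes tested. In mitochondrial fatty acid oxidation 2 of 29 genes fell, hacd-1, a hydroxyacyl-CoA dehydrogenase gene (log2 change -0.54 ± 0.10, adjusted p = 0.00957, or 0.0635 with median scaling and 0.0518 leaving out Z-medium replicate 1), and ech-7, an enoyl-CoA hydratase gene (-0.52 ± 0.10, adjusted p = 0.0132, or 0.107 with median scaling and 0.0767 leaving out culture replicate 3), with a list median of 0.03. Of 10 lipase genes lips-17 fell (-0.55 ± 0.12, adjusted p = 0.0272, or 0.0863 with median scaling and 0.0965 leaving out Z-medium replicate 1).

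In one-carbon metabolism the methionine synthase gene metr-1 and the gene of its activating reductase, mtrr-1, fell, 2 of 15 genes of the methionine cycle list (median -0.16, or -0.05 with median scaling). Signals of metr-1 were 2153, 1959.7 and 1903 in the culture, against 2608, 2649 and 2573 in Z-medium (adjusted p = 0.0491, or 0.168 with median scaling and 0.186 leaving out culture replicate 3) and those of mtrr-1 were 1979, 2089 and 1992 in the culture, against 2834, 2452 and 2833 in Z-medium (adjusted p = 0.0132, or 0.0982 with median scaling and 0.0714 leaving out Z-medium replicate 1). Methionine synthase needs vitamin B12, and so does the mutase of the propionate pathway. Its gene mmcm-1 had signals of 2016, 2313 and 2051 in the culture, against 1959.7, 1773 and 1052 in Z-medium (adjusted p = 0.203), which did not overlap between groups, and 0 of 10 genes of the propionate list passed (median -0.05, or 0.06 with median scaling, and 1 higher and 2 lower unadjusted). Central carbon and energy metabolism showed no call: 0 of 18 glycolysis, 0 of 17 TCA and glyoxylate, 0 of 43 respiratory chain, 0 of 19 vacuolar ATPase and 0 of 8 trehalose genes passed, with medians of -0.04, -0.01, -0.04, -0.04 and -0.09. With p unadjusted the counts were 1 higher and 1 lower in glycolysis, 0 higher and 1 lower in the TCA list, 1 higher and 1 lower in the respiratory chain, 0 higher and 0 lower in the vacuolar ATPase and 1 higher and 1 lower in the trehalose list. With median scaling these medians lay between 0.02 and 0.10, still below the 0.11 of all probe sets in that setting. Among their members the pyruvate kinase gene pyk-2 had a value of -0.39 ± 0.10 (adjusted p = 0.0613, 0.0130 with the block), fbp-1, of gluconeogenesis, 0.29 ± 0.10 (adjusted p = 0.197), the isocitrate dehydrogenase gene idh-1 -0.16 ± 0.07 (adjusted p = 0.298), mdh-2, the malate dehydrogenase gene, 0.15 ± 0.07 (adjusted p = 0.352), and the trehalase gene tre-3 -0.45 ± 0.11 (adjusted p = 0.0656, 0.0103 with the block).

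Among the cuticle collagens every gene that passed fell. Of 106 tested 8 fell and 0 rose (median -0.48, or -0.37 with median scaling), in 51 every culture array lay below every Z-medium array, and with the block 55 were lower. The furrow collagen gene dpy-9 had signals of 33.5, 32.2 and 49.0 in the culture, against 130.2, 124 and 129.9 in Z-medium and fell at least 2.21-fold (adjusted p = 5.23e-04). The furrow collagen gene dpy-3 had signals of 83.0, 184 and 111 in the culture, against 288, 220.4 and 222 in Z-medium (adjusted p = 0.0473, or 0.0566 with median scaling and 0.198 leaving out Z-medium replicate 1). Culture replicate 2 was the highest culture array for dpy-3 and came close to the lowest Z-medium array. Furrow collagens shape the annular rings of the cuticle, and 2 of 5 tested fell. Of other collagens, col-65 had signals of 346, 95.4 and 327 in the culture, against 885, 1069 and 548 in Z-medium (adjusted p = 0.0250, or 0.103 leaving out Z-medium replicate 2). In col-88 they were 478, 306 and 276 in the culture, against 1596, 832 and 874 in Z-medium (adjusted p = 0.0321, or 0.149 leaving out Z-medium replicate 1). For col-90 they were 183, 146 and 134 in the culture, against 481, 296 and 315 in Z-medium (adjusted p = 0.0370, or 0.180 leaving out Z-medium replicate 1). These 3 genes had no overlap between the groups. For col-137 they were 208, 181 and 135 in the culture, against 526, 370.4 and 255 in Z-medium (adjusted p = 0.0223, or 0.107 leaving out culture replicate 3). A much brighter collagen, col-157, had signals of 5741, 5109.8 and 4484 in the culture, against 8691, 8282 and 6942 in Z-medium (adjusted p = 0.0329, or 0.149 leaving out culture replicate 3). The adult collagen marker col-19 had a log2 value of -0.03 ± 0.08 (adjusted p = 0.894), and rol-6 had -0.73 ± 0.19 (adjusted p = 0.0713, 3.98e-04 with the block).

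Fewer other genes of the molt and the apical surface fell. Of 64 molting and apical matrix genes 3 fell on the brightest probe set, qua-1, lpr-4 and ptr-23 (median -0.21), and 14 were lower with the block. The lipocalin-related gene lpr-4 had signals of 128, 91.5 and 161 in the culture, against 275, 219 and 219 in Z-medium (adjusted p = 0.0388, or 0.0573 with median scaling and 0.175 leaving out Z-medium replicate 1) and the patched-related gene ptr-23 had 499.7, 365 and 386 in the culture, against 817, 707 and 635 in Z-medium (adjusted p = 0.0278, or 0.132 leaving out culture replicate 2). The dimmer probe sets of ptr-23 had log2 values of -0.47, -0.51 and -0.53 and did not pass (adjusted p = 0.106, 0.258 and 0.122). Of 18 astacin protease genes, some of which open the old cuticle, 0 passed (0 higher and 3 lower unadjusted), with nas-15 at -0.71 ± 0.24 (adjusted p = 0.160, 0.0456 with the block) and nas-37 at -0.46 ± 0.15 (adjusted p = 0.149, 0.0310 with the block). Their median of -0.09 was 0.02 with median scaling, below the 0.11 of all probe sets in that setting. Of 34 transthyretin-like genes, which encode secreted proteins, ttr-39 (-0.72 ± 0.16, adjusted p = 0.0401, or 0.0994 with median scaling and 0.131 leaving out culture replicate 2) and ttr-8 (-0.71 ± 0.16, adjusted p = 0.0347, or 0.149 leaving out Z-medium replicate 1) fell. The prion-like repeat genes abu-6, whose family is tied to the pharyngeal cuticle and to ER stress, and pqn-94 had signals of 541, 375 and 461 in the culture, against 1836, 1101 and 1040.0 in Z-medium for abu-6 (adjusted p = 0.0352, or 0.171 leaving out Z-medium replicate 1) and 655, 538 and 509 in the culture, against 1056, 907 and 934 in Z-medium for pqn-94 (adjusted p = 0.0492, or 0.194 leaving out Z-medium replicate 1). They were the falls among 24 ER stress and 52 pharynx genes, whose medians were -0.16 and -0.18 (-0.05 and -0.07 with median scaling), and 7 and 10 of those lists were lower with the block.

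Most sperm genes had negative values and most oocyte and early embryo genes positive ones, and none passed on its brightest probe set without the block. Of 59 sperm genes 0 passed (0 higher and 13 lower unadjusted), 4 had a positive value and the median was -0.47, or -0.36 with median scaling. With the block 34 were lower and 0 higher. On single arrays the median deviation of the sperm list from the mean of 15 arrays was 0.03, -0.45 and -0.72 in culture replicates 1 to 3, against 0.42, 0.04 and -0.17 in Z-medium. The groups overlapped, since culture replicate 1 lay within the range of Z-medium, and in each group replicate 1 was the highest. Within each replicate number the culture array was the lower one. The sperm phosphatase gene gsp-4 had signals of 955, 555 and 557 in the culture, against 1536, 922 and 706 in Z-medium (log2 value -0.59 ± 0.31, adjusted p = 0.388, 0.00133 with the block). Its paralog gsp-3 had a log2 value of -0.58 ± 0.34 (adjusted p = 0.431, 0.00516 with the block), and probes may not tell such near-identical genes apart. The members with the smallest p were spe-46 (-0.99 ± 0.31, adjusted p = 0.136, 2.44e-04 with the block) and ssp-16 (-0.80 ± 0.29, adjusted p = 0.207, 6.43e-04 with the block). The sperm marker fer-1 stood at -0.18 ± 0.25 and did not pass with the block either (adjusted p = 0.767, 0.700 with the block).

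Oocyte and embryo genes had small positive values. Of 25 oocyte and eggshell genes 24 had a positive value with a median of 0.15, and 0 passed on the brightest probe set (6 higher and 0 lower unadjusted). With the block 2 were higher, and with the block and median scaling 10. Over all 13529 probe sets tested, 246 were higher with the block and 849 with the block and median scaling. The median deviation of this list was 0.09, 0.13 and 0.13 on the culture arrays, against -0.15, 0.04 and 0.05 in Z-medium, with no overlap. The chondroitin proteoglycan genes cpg-3 and cpg-2, which build the eggshell, had signals of 11577, 9241 and 10963 in the culture, against 8049.6, 8589 and 7785 in Z-medium for cpg-3 (adjusted p = 0.110, 0.0389 with the block) and a log2 value of 0.21 ± 0.08 for cpg-2 (adjusted p = 0.232). The gene egg-3, needed for egg activation, had 2719, 3240.2 and 2911 in the culture, against 2385, 2441 and 2410.2 in Z-medium (adjusted p = 0.133, 0.0306 with the block). The oocyte markers oma-1, oma-2, rme-2, puf-5 and cbd-1 had values of 0.11, 0.09, 0.21, 0.18 and 0.11. None of these markers passed, with or without the block. Of 42 early embryo genes 33 were positive (median 0.28), 0 passed (5 higher and 1 lower unadjusted), and 7 were higher and 1 lower with the block. Their median deviation was 0.07, 0.18 and 0.39 in the culture, against -0.52, 0.06 and 0.18 in Z-medium, and the groups overlapped. A ubiquitin ligase adaptor gene of this list, skr-10, had signals of 1002, 958 and 1007 in the culture, against 389, 560.0 and 684 in Z-medium (adjusted p = 0.0941, 0.00777 with the block). Cell cycle genes had a positive value in 31 of 32 (median 0.17, 0 past the adjusted test, 5 higher and 0 lower unadjusted), and the B-type cyclin gene cyb-2.2 had 6264, 6806 and 6883 in the culture, against 4985, 5944 and 5231 in Z-medium (adjusted p = 0.113, 0.0204 with the block). Of 40 germline and meiosis genes 33 were positive (median 0.08, 0 past the adjusted test, 5 higher and 0 lower unadjusted), while the germline markers pgl-1, glh-1 and gld-1 had values of 0.08, -0.01 and -0.04. In 12 gonad sheath and spermatheca genes 0 passed (0 higher and 0 lower unadjusted), and their median was 0.10. Stage or sperm content of the animals was not measured apart from these lists, and its part in the other results was not tested.

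**Figure D3:**
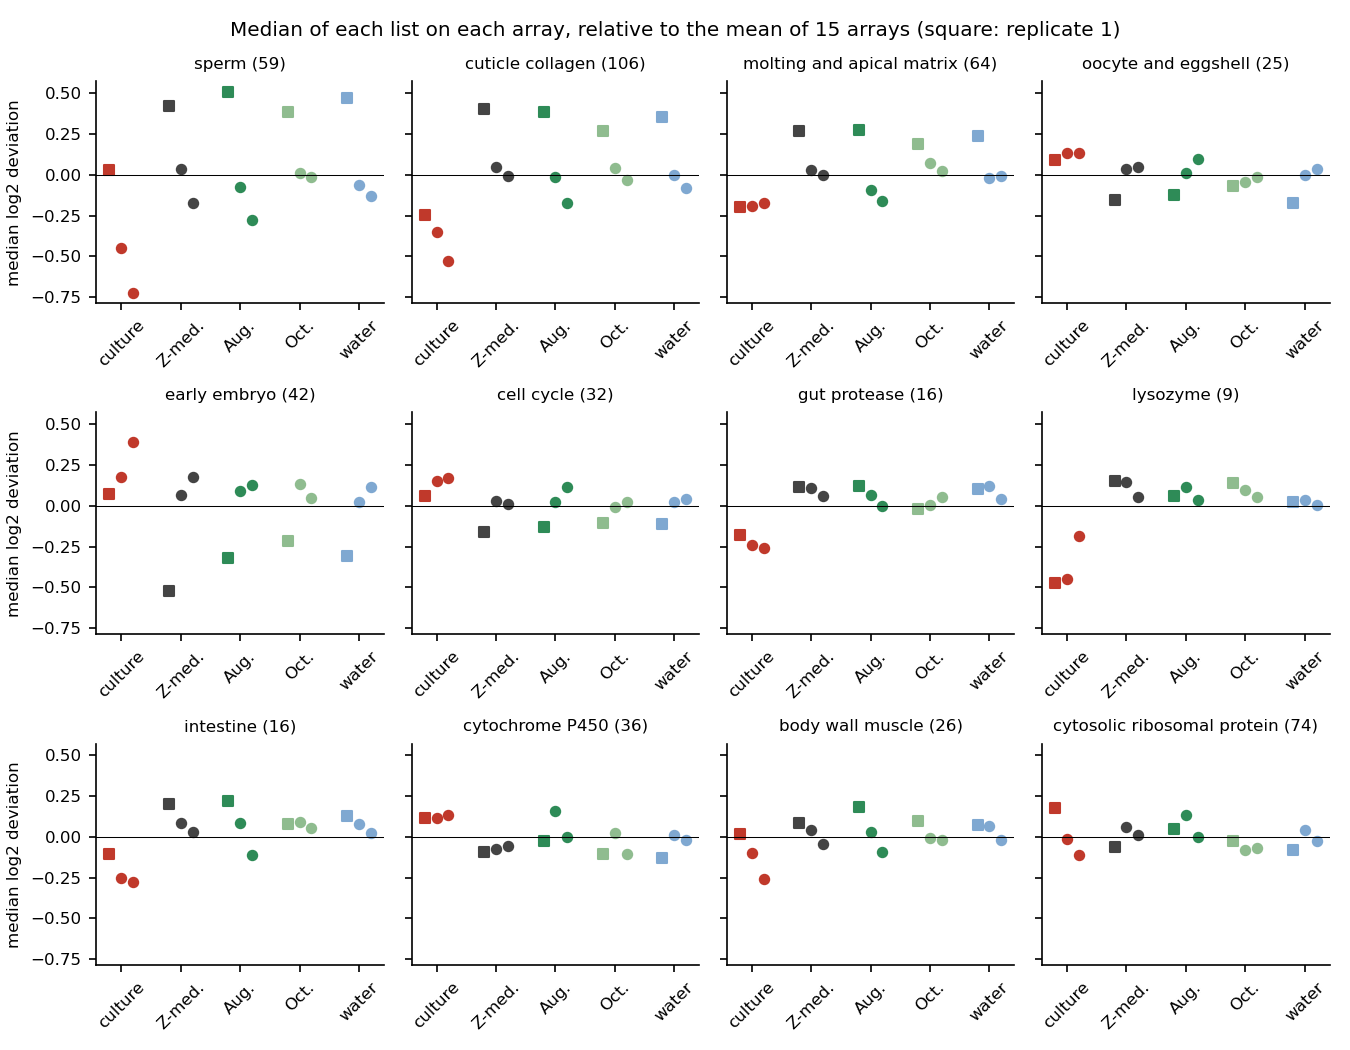
Median log2 deviation of 12 gene lists on each of the 15 arrays from the mean of all 15 (vertical axis shared, number of genes in brackets, squares for replicate 1 and circles for replicates 2 and 3). The culture arrays lie below all others for lysozymes, gut proteases and molting genes, and sperm medians of the culture run from 0.03 to -0.72 with replicate 1 the highest in every group.

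Muscle, nerve and other tissues held few calls. Of 26 body wall muscle genes the troponin I gene tni-1 fell, with signals of 1007, 888 and 867 in the culture, against 1545, 1205 and 1267 in Z-medium (adjusted p = 0.0341, or 0.0835 with median scaling and 0.171 leaving out Z-medium replicate 1), and 4 of 26 had a positive value (median -0.14, or -0.03 with median scaling). The muscle myosin genes unc-54 and myo-3 and the paramyosin gene unc-15 had values of -0.14, -0.24 and 0.14, none past the test. In the pharynx the myosin genes myo-1 and myo-2 had -0.39 and -0.35 and the troponin T gene tnt-4 -0.64. Among these, tnt-4 passed with the block (adjusted p = 3.57e-04) and so did myo-1 (adjusted p = 0.0133). Of 22 pan-neuronal genes 0 passed (median -0.11, or -0.001 with median scaling, and 1 higher and 1 lower unadjusted), with rab-3, snb-1, snt-1, egl-3 and unc-119 between -0.29 and 0.16. Of 58 neuropeptide genes nlp-10 fell, with signals of 171, 155 and 171 in the culture, against 258, 251 and 247 in Z-medium (adjusted p = 0.0311, or 0.0856 with median scaling and 0.132 leaving out culture replicate 2), and 8 were lower with the block (median -0.19). Of 35 chemoreceptor genes, most of the 1253 on the array being too dim to test, srh-237 fell, with signals of 387, 365 and 352 in the culture, against 488, 515 and 617 in Z-medium (adjusted p = 0.0219, or 0.128 with median scaling and 0.0935 leaving out culture replicate 3). In the epidermis list 0 of 15 passed, in the excretory list 0 of 11, in the coelomocyte list 0 of 5, in the glia list 0 of 4 and in the innexin list 0 of 18. Unadjusted counts were 2 higher and 2 lower in the epidermis, 0 higher and 1 lower in the excretory, 0 higher and 0 lower in the coelomocyte, 0 higher and 2 lower in the glia and 2 higher and 2 lower in the innexin list. The medians of the epidermis and excretory lists, -0.02 and -0.05, were 0.09 and 0.06 with median scaling, still below the 0.11 of all probe sets.

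Housekeeping and regulatory lists had 2 calls in all. Of 74 cytosolic ribosomal protein, 57 mitochondrial ribosomal protein, 33 proteasome, 32 histone and 82 F-box genes 0 passed, with medians of 0.01, -0.02, 0.06, 0.12 and 0.09. Unadjusted counts of these lists were 0 higher and 0 lower, 0 higher and 1 lower, 0 higher and 0 lower, 2 higher and 1 lower and 2 higher and 2 lower, in the same order. The median of the mitochondrial ribosomal list was 0.09 with median scaling, below the 0.11 of all probe sets in that setting. Of 107 nuclear hormone receptor genes nhr-106 fell at least 1.80-fold, with signals of 60.8, 45.8 and 60.5 in the culture, against 103.7, 103 and 106 in Z-medium (adjusted p = 0.0177, or 0.0578 with median scaling and 0.0871 leaving out culture replicate 2), and nhr-114 fell with signals of 1157, 860.3 and 935 in the culture, against 1572, 1640.2 and 1401 in Z-medium (adjusted p = 0.0304, or 0.101 with median scaling and 0.142 leaving out culture replicate 2). The median of that list, -0.05, was 0.06 with median scaling, also below that of all probe sets. Among 30 homeobox (1 higher and 0 lower unadjusted) and 22 leucine zipper and GATA factor genes (1 higher and 4 lower unadjusted) 0 passed, with ceh-38 at 0.37 ± 0.10 (adjusted p = 0.0775, 0.0107 with the block), zip-5 at -0.55 ± 0.17 (adjusted p = 0.118, 0.0453 with the block) and zip-2, a factor of the infection response, at -0.39 ± 0.14 (adjusted p = 0.191, 0.0333 with the block). Of 11 chitin genes 0 passed (2 higher and 0 lower unadjusted), with the chitinase gene cht-3 at 0.44 ± 0.11 (adjusted p = 0.0702, 0.00201 with the block).

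**Figure D4:**
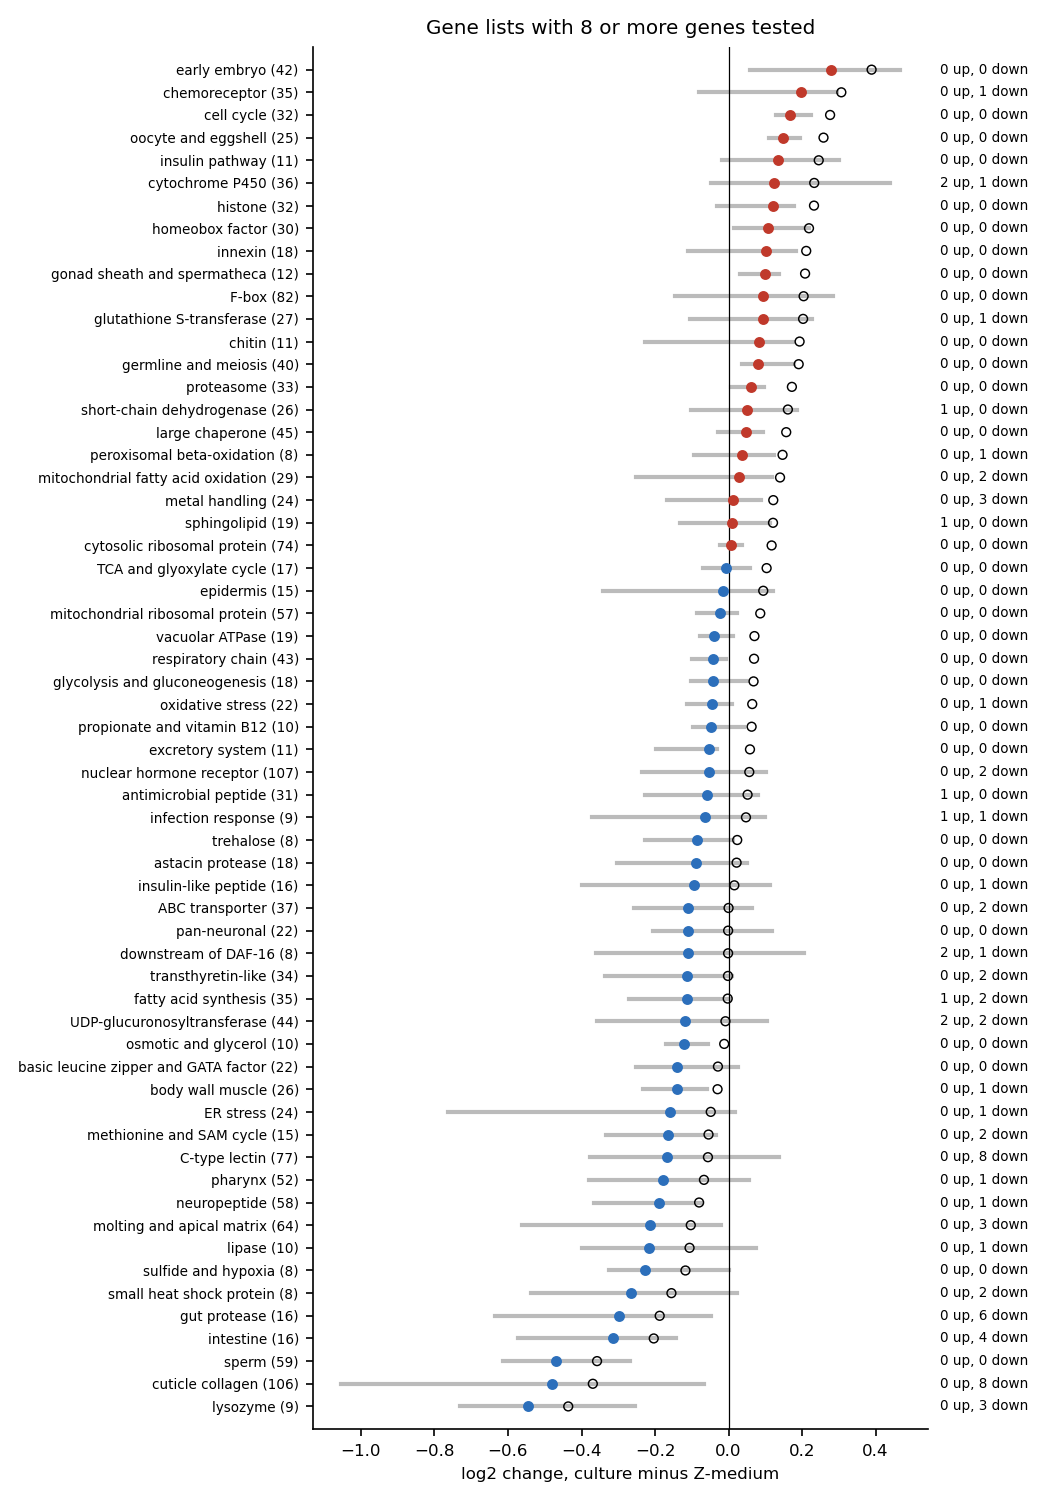
Median log2 change of culture minus Z-medium for each gene list with 8 or more genes tested (red above 0, blue below 0), with the range between the list's quartiles as a grey bar, the median with median scaling as an open circle, and the counts past the test at the right. Lysozyme, cuticle collagen and sperm lists lie lowest at -0.55, -0.48 and -0.47, and the early embryo list highest at 0.28.

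With replicate number as a block 1036 further probe sets passed, 198 higher and 838 lower. Among the largest falls of these, Y51H7C.13 had signals of 313, 220.4 and 83.5 in the culture, against 1044, 583 and 580.0 in Z-medium (log2 value -1.98 ± 0.51, adjusted p = 0.0712 without the block, 2.40e-05 with it). Signals of Y47D7A.13 were 497, 519 and 346 in the culture, against 2448, 1132 and 1098 in Z-medium (adjusted p = 6.95e-05 with the block). In both genes Z-medium replicate 1 was far above all other arrays of the pair of groups. The ether lipid monooxygenase gene agmo-1 had signals of 81.3, 11.97 and 51.1 in the culture, against 139.5, 144 and 107 in Z-medium (adjusted p = 0.0963, 0.00995 with the block), with culture replicate 2 the lowest. Among the largest rises of these were T16G1.7, with signals of 202, 195 and 227 in the culture, against 121.8, 79.7 and 51.6 in Z-medium (adjusted p = 0.0635, 0.0176 with the block), bigr-1, with 153, 133 and 111 in the culture, against 76.2, 72.4 and 51.2 in Z-medium (adjusted p = 0.0524, 0.00143 with the block), and cyp-25A1, of the cytochrome P450 family, with 125, 186 and 164 in the culture, against 59.7, 83.9 and 139 in Z-medium (adjusted p = 0.221, 0.01999 with the block). The arrays of cyp-25A1 overlapped between the groups. The labels do not say whether a replicate number marks a shared batch. The deviations of same-numbered culture and Z-medium arrays from their group means correlated at 0.36, -0.03 and 0.26 across probe sets. Those of differently numbered arrays correlated at -0.34 to 0.12. Deviations within a group sum to 0, so these correlations depend on each other. Replicate 1 arrays of the other 4 groups lay together on the first principal component and culture replicate 1 was the lowest of its group there, so the count with the block is given beside the main one.

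The changes in the culture were set against those in worms given lake water, each exposure relative to its own control. Of the 209 probe sets, 204 had a mean lake effect within 0.5 of 0 on the log2 scale, and the median was -0.04, with a range of -0.77 to 1.23. The highest, that of F36H12.4, is not exact, since its water mean of 48.8 lay below the testing level. Over all 13529 probe sets tested, 1 passed for the mean lake effect. Lake values near 0 were therefore not shown to be particular to the 209. The difference of the effects itself passed for 36 probe sets (0.266%), 13 higher and 23 lower in the culture, and 34 of them were among the 209. Both tests hold the same change of culture against Z-medium, so this overlap is no separate support. For pud-3, lake arrays lay at 304, 264 and 302 in August and 336, 325 and 318 in October, with water at 398, 306 and 374, so every culture array was above all 12 others. For irg-4 they lay at 628, 583 and 515 in August, 498, 368 and 519 in October and 603, 603 and 455 in water. For clec-47 they lay at 4254, 4219 and 3105 in August, 3527, 3313 and 3732 in October and 4043, 4164 and 3987 in water, each above the highest culture array. The doses were 40% for the culture and 200% for lake water, each relative to its own sample, so sizes are not compared at a matched dose.

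**Figure D5:**
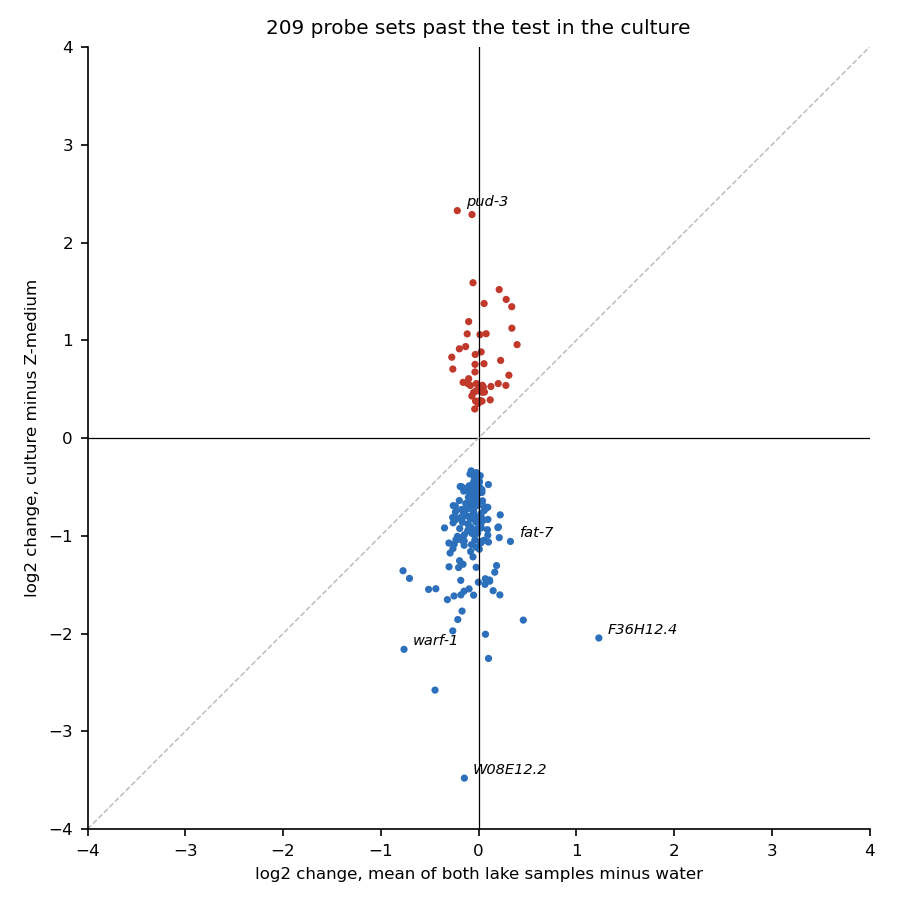
Log2 change of culture minus Z-medium (vertical) against the mean log2 change of both lake samples minus water (horizontal) for the 209 probe sets that passed, higher in red and lower in blue, with the line of equal change dashed. Points lie along the vertical axis, 204 of 209 within 0.5 of 0 in the lake samples, with F36H12.4 at 1.23 as the highest, a value that rests on a water mean below the testing level. Over all probe sets tested, 1 passed for the mean lake effect.

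Called genes were placed in the genome by chromosome, with no test of their spread. On chromosome V 2.90% of 1863 genes tested were lower, against 0.620% to 1.23% on the other chromosomes, and 0.537% were higher, against 0.226% to 0.465%. Of 186 called genes 184 were placed in the gene order of the reference assembly, and 18 stood next to another called gene, in 9 pairs that each moved in 1 direction. They included pud-3 with pud-4, asp-6 with asp-12, clec-62 with clec-63, dod-19 with irg-8 and gsto-1 with col-90. Several of these pairs are members of 1 family, whose probes may share sequence. Of 39 called genes with several probe sets tested, 37 had the same sign on all of them and 7 passed on every one.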

How the data were processed

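The authors deposited linear signal intensity per probe set, computed by MAS5 (Affymetrix Expression Console 1.2.0.20), per the submitters' processing notes. The trimmed mean of each array (500.123 to 500.137) shows scaling to a common level. Signals were taken to log2. Of 22625 probe sets, 77 controls were left out, and the 13529 of the other 22548 whose mean log2 signal reached the 40th percentile (5.86) were tested. All 15 arrays entered 1 limma model (limma 3.58.1 under R 4.3.3, eBayes with intensity trend) with a mean per group and 10 residual degrees of freedom, or 8 with replicate number as a block. Benjamini-Hochberg adjustment ran over all probe sets tested. With 3 arrays a group, their number limits the precision, and an exact permutation test of 1 gene could not pass. On simulated data 77 of 100 changes of 1 log2 unit and 96 of 100 of 2 units were recovered, with 9 false calls. Whether these counts carry over to the arrays of this series, where replicate 1 stood apart in several groups, was not tested. The platform annotation gave 20766 probe sets 1 symbol, 887 several and 895 none, and 20701 matched the reference table of assembly WBcel235. Gene names follow a rule: the 15 largest rises and falls with 1 symbol, up to 6 called members per list (or the 2 with the smallest p), the 10 largest rises and falls called only with the block, tissue markers, and 5 rises and falls against the lake effect. Genes of unknown function were partly left unnamed. The comparison, the 65 lists and the rule were chosen with earlier results of these data known. Alternatives were other scalings, filters, offsets, variance models, subsets of arrays and the block. Gene and probe sequences were not used here.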

Additional observations from a re-analysis of the deposited data

Results flagged for a closer look

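The difference between the culture effect and the mean lake effect, each against its own control, was tested as a contrast within limma, and 36 probe sets passed at an adjusted p under 0.05. The 5 largest positive differences were those of pud-3 (log2 difference 2.54 ± 0.17, adjusted p = 1.79e-06), pud-4 (2.35 ± 0.27, adjusted p = 3.74e-04), C50B6.7 (1.31 ± 0.24, adjusted p = 0.0313), irg-4 (1.29 ± 0.22, adjusted p = 0.0187) and sysm-1 (1.11 ± 0.20, adjusted p = 0.0258). The 5 largest negative ones were those of W08E12.2 (-3.33 ± 0.53, adjusted p = 0.0105), F36H12.4 (-3.28 ± 0.64, adjusted p = 0.0477), cyp-33A1 (-1.71 ± 0.16, adjusted p = 3.19e-05), ugt-2 (-1.70 ± 0.32, adjusted p = 0.0309) and dpy-9 (-1.60 ± 0.30, adjusted p = 0.0313). Mean lake changes pool August and October, which are not given apart for the next genes. In cyp-33A1 the difference came with a mean lake change of 1.62 ± 0.10 and a culture change of -0.09 ± 0.12, which did not pass (adjusted p = 0.757). In ugt-2 the mean lake change was 0.79 ± 0.21 and the culture change -0.91 ± 0.24 (adjusted p = 0.0723). The values of W08E12.2, F36H12.4 and dpy-9 include culture signals below the level needed for testing, and that of F36H12.4 also a water mean of 48.8 below it, so their sizes are not exact.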

How the results depend on the processing

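Replicate number as a block raised the count of probe sets past the test to 1245 from 209, or to 707 with the culture and Z-medium arrays alone, which without the block gave 117. Leaving out all 5 replicate 1 arrays gave 534, and median scaling with the block, chosen after seeing the data, gave 1584. Without single arrays the count ran from 89 to 229, and 63 of the 209 passed in all 6 such fits. The difference from the mean lake effect gave 480 with the block and 106 without the replicate 1 arrays, against 36. The other settings (median scaling, quantile normalization, offset, filters and variance models) kept both counts within 1.5 times. The count of higher calls was 62 with median scaling, against 48. The log2 value of cyp-33A1 turned to 0.0195 with median scaling, with or without the block, and to 0.0070 with quantile normalization, and that of vha-12 turned to 0.0078 with median scaling, with or without the block. Neither gene passed in any of these. The causes were not tested. The lowest signals limit the size of falls: 17 of the 161 had a culture mean below the testing level.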
